A study of Mus musculus with 6 samples.

Results

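The *Slc1*, *Slc3*, *Slc6*, *Slc7*, *Slc36*, *Slc38* and *Slc43* gene families, which hold most amino acid carriers of the mammalian plasma membrane and lysosome, were followed through EMT and MET of EpH4 cells, an established epithelial line of the mouse mammary gland. Members were the genes of the deposited table whose symbol is 1 of these 7 family names followed by a number, without use of any measured value. The table holds 46 such genes among 17428. They are 6 of *Slc1*, 2 of *Slc3*, 11 of *Slc6*, 11 of *Slc7*, 3 of *Slc36*, 10 of *Slc38* and 3 of *Slc43*. The rule is one of names, so it takes in relatives with other cargo, such as the noradrenaline carrier *Slc6a2*, the serotonin carrier *Slc6a4* and the creatine carrier *Slc6a8*.

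E cells were EpH4 cells in their ordinary medium with serum and insulin. M cells had been kept with TGFβ1 for 7 days, and RE cells were M cells returned to the ordinary medium for another 4 days after those 7 days. All 3 states are cultures of the same line, so they share its immortalized background, and each was sequenced from 2 biological replicates, named here E1 and E2, M1 and M2, and RE1 and RE2. Values are coverage, that is, sequenced bases summed per gene, scaled by TMM and given in ppm of each library, and n is 2 libraries per state throughout. In E vs. M and E vs. RE a positive log2 fold change is higher in M or RE than in E, and in M vs. RE it is higher in RE. A gene is called (a DEG) at a log2 fold change beyond 1 in either direction and a Benjamini-Hochberg adjusted p below 0.01 in the limma fit to all genes. E vs. M and E vs. RE share the E libraries, so their results are not independent of each other.

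Amino acids cross membranes by coupled transport. Some carriers, as in *Slc1*, *Slc6*, *Slc36* and *Slc38*, drive uptake with sodium or protons, whereas most of *Slc7* swap an amino acid inside the cell for another outside and need a heavy chain of *Slc3* to reach the surface. In the mammary gland these systems feed milk protein synthesis, and in cultured cells several of their genes are induced by the transcription factor ATF4 when amino acids run short, through a promoter element called CARE. Amino acid supply is in turn read at the lysosome by mTORC1.

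RefSeq promoter windows of 300 bases (250 before and 50 after an annotated start, GRCm38.p6) were matched by symbol to 32 of the 46 members and to 8 of the 16 members called below. Windows on 1 chromosome were left out for the members and kept in the count of all windows, so a member there counts as having none. The windows printed are those of *Slc7a11* and *Slc1a4*, shown for their CARE, and of *Slc6a14* and *Slc1a3*, which had the largest changes among called members with a window. They run 5′ to 3′ along the gene, and capitals mark a match on either strand to CARE (TGATGNAA), AP-1 (TGANTCA) or the E2-box bound by ZEB and SNAIL factors (CACCTG).
Slc7a11, chr3:50443564-50443863, minus strand: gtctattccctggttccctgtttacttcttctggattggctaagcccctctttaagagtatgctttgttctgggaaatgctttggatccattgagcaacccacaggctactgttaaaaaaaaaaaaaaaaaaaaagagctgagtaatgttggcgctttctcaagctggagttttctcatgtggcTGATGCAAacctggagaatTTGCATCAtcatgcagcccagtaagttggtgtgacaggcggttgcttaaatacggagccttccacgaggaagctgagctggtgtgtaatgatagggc
Slc1a4, chr11:20332664-20332963, minus strand: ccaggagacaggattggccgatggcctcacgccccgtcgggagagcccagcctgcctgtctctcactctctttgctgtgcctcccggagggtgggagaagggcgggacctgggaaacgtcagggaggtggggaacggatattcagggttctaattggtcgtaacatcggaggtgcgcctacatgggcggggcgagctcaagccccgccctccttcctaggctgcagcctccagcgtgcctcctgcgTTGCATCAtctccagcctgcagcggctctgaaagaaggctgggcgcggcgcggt
Slc6a14, chrX:21714650-21714949, plus strand: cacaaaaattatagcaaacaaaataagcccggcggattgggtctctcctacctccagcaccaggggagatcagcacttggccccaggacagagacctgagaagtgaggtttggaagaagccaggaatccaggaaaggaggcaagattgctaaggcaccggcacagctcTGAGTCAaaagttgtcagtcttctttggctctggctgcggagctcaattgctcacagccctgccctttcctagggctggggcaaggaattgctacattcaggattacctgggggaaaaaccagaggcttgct
Slc1a3, chr15:8710758-8711057, minus strand: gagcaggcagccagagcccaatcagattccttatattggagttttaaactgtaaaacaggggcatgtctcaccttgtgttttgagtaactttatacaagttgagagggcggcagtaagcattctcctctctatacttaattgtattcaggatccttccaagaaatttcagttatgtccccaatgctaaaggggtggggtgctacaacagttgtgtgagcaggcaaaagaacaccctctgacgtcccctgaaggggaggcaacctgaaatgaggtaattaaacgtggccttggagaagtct
The *Slc7a11* window holds CARE at 2 positions, starting 66 bases before the annotated start on the forward strand and 47 bases before it on the reverse strand, and the *Slc1a4* window holds 1. The *Slc6a14* window holds 1 AP-1 match, and that of *Slc1a3* none of the 3. CARE occurs in 3.97% of all 32851 windows, AP-1 in 7.81% and the E2-box in 20.2%. Of the 50 windows of the 32 members, some of which have several, 4 (8%) held CARE, 6 (12%) AP-1 and 9 (18%) the E2-box. These windows belong to 3, 6 and 7 members. Windows of 1 gene can overlap, so a CARE of *Slc7a7* and an E2-box of *Slc6a12* were each counted in more than 1 window. These matches describe the letters only, and binding was not measured.

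Of the 46 members, 33 reached 500 bases (10 reads' worth) in at least 2 libraries and were tested among 13893 genes, and 27 of them reached it in every library. None of the 33 passed through the libraries of a single state. The other 13 were below that level, among them *Slc7a8*, the LAT2 light chain, and *Slc38a4* and *Slc38a5*. For 5 of the 13 (*Slc38a4*, *Slc38a5*, *Slc38a8*, *Slc7a10* and *Slc7a8*) no library held more than 150 bases (3 reads' worth), so that expression was not detectable at this depth. *Slc1a1* and *Slc7a9* were not analysed here.

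The libraries held between 35782513 and 47928557 reads' worth of 50 bases, and the members took between 0.223% (E1) and 0.333% (E2) of a library. The E libraries differed from each other more than the M or RE libraries did, with an SD of the log2 difference between replicates of 0.558 in E, 0.318 in M and 0.309 in RE. The mesenchymal markers *Vim*, *Fn1*, *Zeb2* and *Cdh2* were 4 of 4 called higher in M than in E (100%, against 8.58% of all genes). Among the epithelial markers, *Ocln* fell in M (log2 fold change -2.69) and was higher in RE than in M (1.91), while the keratins *Krt8* (-1.32 in M vs. RE) and *Krt18* (-1.34 in E vs. RE) were called lower in RE. *Cdh1* was not called in any comparison, and *Epcam* was not analysed here. Of markers of other cells, the leukocyte gene *Ptprc* lay at or near 0 (0 to 0.0781 ppm) and the endothelial *Pecam1* at 0.18 to 0.429 ppm. The macrophage gene *Cd68* was present in every library (5.17 to 9.18 ppm) and was not called, whereas the fibroblast gene *Pdgfra* ran from 17.5 ppm in E2 to 92.2 ppm in RE1 and *Col1a1* from 31.6 ppm in E1 to 555 ppm in M1. In these bulk cultures a change in the share of cells of a kind and a change in RNA per cell cannot be told apart, and the part of either in the results was not tested.

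Compared per kilobase of transcript, the heavy chain *Slc3a2* stood highest of all members, at 240 ppm per kb in E, 205 in M and 217 in RE. It was followed by the system A carrier *Slc38a2*, with a mean over states of 99.9 ppm per kb, the light chain *Slc7a5* with 82.2, the taurine carrier *Slc6a6* with 77.3 and *Slc38a10*, an intracellular member of the *Slc38* family, with 53.2. The order below *Slc3a2* differed by state. In E, *Slc7a5* (106) stood above *Slc38a2* (51.5) and *Slc6a6* (34.7), and in M and RE it stood below both. The glycine carrier *Slc6a9* (60.9 in E, 10.3 in M and 30 in RE) also stood above *Slc38a2* in E. *Slc38a10* stood at 40.2 in E, 75.6 in M and 43.9 in RE. These are levels and were not tested against each other.

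**Figure D1:**
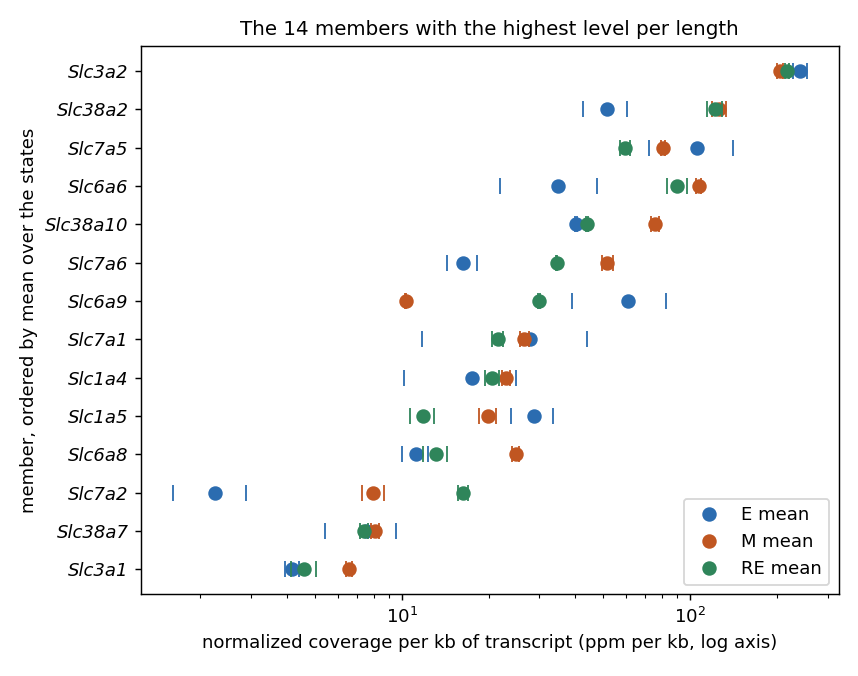
Normalized coverage in ppm per kilobase of transcript (log axis) of the 14 members with the highest level, with a tick for each library and a point for the mean of the 2 libraries of E, M and RE cells. *Slc3a2* lies above all others in each state, and the E ticks of *Slc7a1* and *Slc1a4* are the furthest apart.

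Across the 3 comparisons, 16 of the 33 tested members were called at least once. The share of all genes called at least once was not computed, so shares are given for each comparison. In E vs. M, 13 were called (39.4%, against 17% of all genes tested), 7 higher in M (*Slc36a4*, *Slc38a2*, *Slc6a6*, *Slc6a7*, *Slc6a8*, *Slc7a2* and *Slc7a6*, against 8.58% of all genes called higher) and 6 lower (*Slc43a2*, *Slc6a14*, *Slc6a15*, *Slc6a2*, *Slc6a9* and *Slc7a3*, against 8.39%). In E vs. RE, 11 were called (33.3%, against 9.37%), 7 higher in RE (against 6.2% of all genes) and 4 lower (against 3.17%). In M vs. RE, 5 were called (15.2%, against 12.9%), and all 5 were higher in RE (*Slc1a3*, *Slc43a2*, *Slc6a14*, *Slc6a2* and *Slc6a9*, against 8.08% of all genes called higher). None was called lower in RE than in M by limma, where 6 were lower at an unadjusted p under 0.05 and 4.79% of all genes were called lower. In this fit to all 6 libraries the share called stood near that of all genes in M vs. RE and above it in both comparisons with E. These shares were not tested against each other, and they depended on the fit. With only the 2 groups compared, 9 members were called in M vs. RE (7 higher and 2 lower), beside 2327 of all 13893 genes. In E vs. RE that fit called 4 members (3 higher and 1 lower), beside 525 of all genes. The median log2 fold change of the members was 0.15 from E to M, -0.13 from M to RE and 0.24 from E to RE, beside medians of all genes tested of 0.00, -0.02 and 0.01.

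The called members fell into a few patterns. Higher in both M and RE than in E were *Slc36a4*, *Slc38a2*, *Slc6a7*, *Slc7a2* and *Slc7a6*, and lower in both were *Slc6a15* and *Slc7a3*. *Slc6a2* fell in M and rose in RE, beyond E. *Slc43a2*, *Slc6a14*, *Slc6a6*, *Slc6a8* and *Slc6a9* were called in E vs. M and not in E vs. RE, and *Slc1a3*, *Slc1a5* and *Slc7a11* the other way round. The libraries of the states did not overlap for 24 members between E and M, 28 between M and RE and 22 between E and RE, and for 70.6%, 78.1% and 66.7% of all genes tested, so that lack of overlap alone sets no member apart.

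Leaving out single libraries changed many of these counts, where the remaining library of a state is taken to vary like the others. The E libraries varied most (SD of the log2 difference 0.558, against 0.318 in M and 0.309 in RE). The fit takes 1 estimate of a gene's spread from all 6 libraries. The spread of E therefore also enters the SE and adjusted p of M vs. RE. A fit without E1 or E2 leaves out the spread of E, so its adjusted p and its number of calls do not take it into account. In M vs. RE such a fit still holds both libraries of each state compared. Without M1 or without M2, 4 members were called in E vs. M and 4 in E vs. RE. Without RE1 or without RE2, 1 was called in E vs. RE. Without E1 or without E2, 9 were called in M vs. RE. Calls over all genes dropped likewise, from 2358 to 901 without M1 and 895 without M2 in E vs. M, and from 1302 in E vs. RE to 520 without M1, 519 without M2, 38 without RE1 and 153 without RE2. Of the 29 calls, 9 held whichever library was left out. They were *Slc6a14*, *Slc6a2*, *Slc6a7* and *Slc7a6* in E vs. M, *Slc1a3*, *Slc43a2*, *Slc6a14* and *Slc6a2* in M vs. RE, and *Slc1a3* in E vs. RE. Each call that did not hold is marked below.

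**Figure D2:**
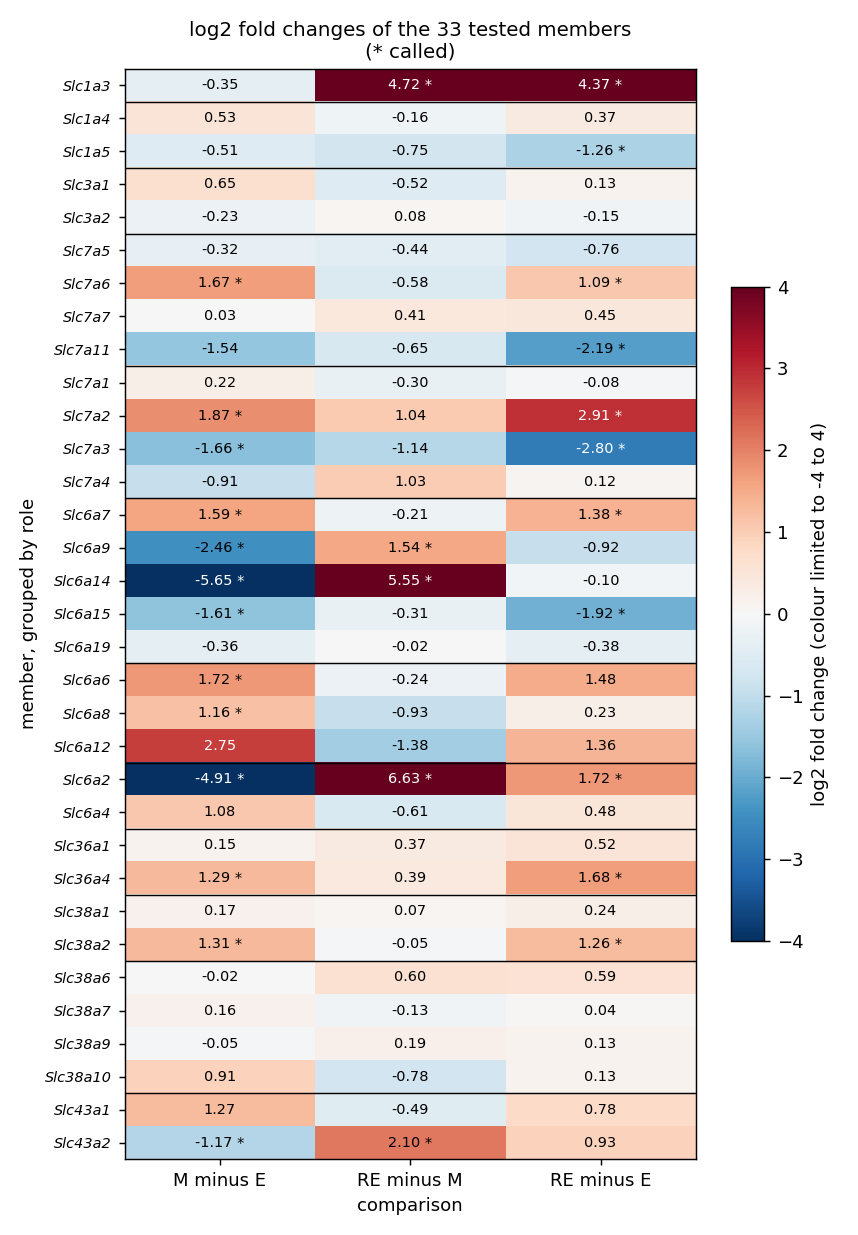
Log2 fold change of the 33 tested members in E vs. M, M vs. RE and E vs. RE, as coloured cells with an asterisk where a member was called. The 13 calls of E vs. M go both ways, and the 5 of M vs. RE are all higher in RE.

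**Figure D3:**
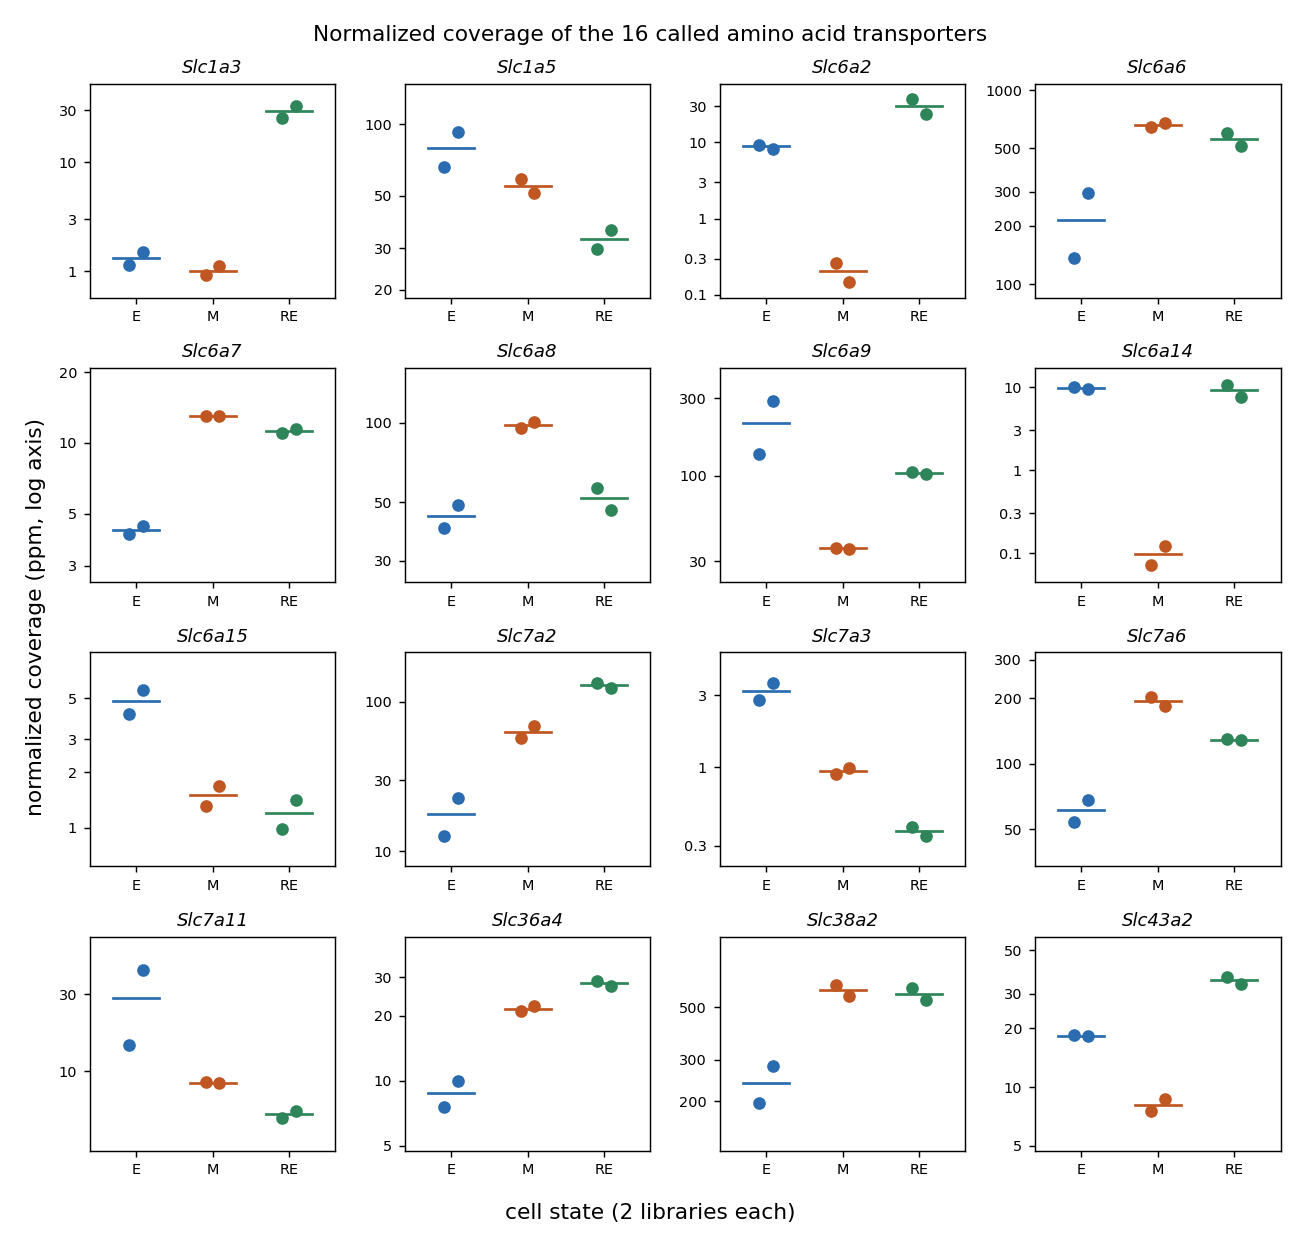
Normalized coverage in ppm (log axis, its range set for each gene) of the 16 called members, with a point for each of the 2 libraries of E, M and RE cells and a bar for their mean. *Slc6a14* and *Slc6a2* are near the bottom of detection in M only, and *Slc1a3* is high in RE only.

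Among the glutamate and aspartate carriers of *Slc1*, only *Slc1a3* was tested. It encodes EAAT1 (GLAST), which takes up glutamate and is best known from astrocytes. Its coverage was 1.14 and 1.49 ppm in E1 and E2, 0.911 and 1.11 ppm in M1 and M2, and 25.5 and 32.8 ppm in RE1 and RE2. The E and M libraries thus lay close together and both RE libraries stood far above them. The log2 fold change was 4.72 ± 0.24 (SE) in M vs. RE (limma adjusted p = 1.82e-05) and 4.37 ± 0.24 in E vs. RE (limma adjusted p = 0.000199), and -0.35 in E vs. M (limma adjusted p = 0.279). The other 3 in the table, *Slc1a2*, *Slc1a6* and *Slc1a7*, did not exceed 0.24 ppm in any library.

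*Slc1a5* and *Slc1a4* encode ASCT2 and ASCT1, which exchange small neutral amino acids, glutamine among them for ASCT2. *Slc1a5* was at 65.9 and 92.8 ppm in E, 58.8 and 51.1 ppm in M and 29.6 and 35.7 ppm in RE. The 3 states did not overlap and stood in the order E, M, RE. Only the fall from E to RE was called (log2 fold change -1.26 ± 0.20, limma adjusted p = 0.00382), and it was no longer called without M1 (adjusted p = 0.0171), M2 (0.017), RE1 (0.0585) or RE2 (0.027). *Slc1a4* was not called, with E1 at 39.8 ppm, E2 at 97.5 ppm and the M and RE libraries between 76.3 and 92.9 ppm, inside the range of the E libraries.

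Neither heavy chain was called. *Slc3a2*, the CD98 heavy chain that partners most *Slc7* light chains, had 638 and 715 ppm in E, 590 and 562 ppm in M and 619 and 600 ppm in RE. The log2 fold changes were -0.23 ± 0.14 from E to M, 0.08 ± 0.14 from M to RE and -0.15 ± 0.14 from E to RE, with limma adjusted p of 0.214, 0.69 and 0.446. *Slc3a1*, the heavy chain of the cystine and dibasic amino acid carrier of kidney and gut, lay at 8.91 to 15.2 ppm and was not called, with its highest values in M.

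Of the 4 light chains tested, 2 were called in E vs. RE (50%, against 9.37% of all genes) and 1 in E vs. M (25%, against 17%). In M vs. RE none was called by limma (against 12.9%), with 1 higher and 1 lower at an unadjusted p under 0.05. *Slc7a6*, the y+LAT2 chain, which exports arginine in exchange for neutral amino acids such as glutamine and sodium, was at 53.8 and 68.3 ppm in E, 203 and 185 ppm in M and 130 and 129 ppm in RE. Every library of M stood above every library of RE, and those above E. It rose in M (log2 fold change 1.67 ± 0.15, limma adjusted p = 0.000176) and in RE against E (1.09 ± 0.15, limma adjusted p = 0.00253). The second call was close to the fold limit and was under it without E1 (0.92), and its adjusted p was 0.0144 without M1, 0.0143 without M2, 0.0441 without RE1 and 0.0321 without RE2. The fold was also under it with the trend on GC content and length removed (0.91). The neighbouring gene *Slc7a6os* was not called in any comparison, at 42.8 to 55.3 ppm.

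*Slc7a5* encodes LAT1, the main carrier of leucine and other large neutral amino acids in growing cells. Its coverage was 254 and 495 ppm in E, 279 and 288 ppm in M and 201 and 217 ppm in RE. The M values lay between the E libraries and the RE values below all others, and none of the comparisons was called (log2 fold change -0.32 ± 0.28 in E vs. M and -0.76 ± 0.28 in E vs. RE, limma adjusted p = 0.379 and 0.0743). With E1 left out, the log2 fold change of E vs. RE was -1.24, and with E2 left out the sign of E vs. M turned (0.16). Either fit leaves out the spread between the E libraries.

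*Slc7a11* encodes xCT, which brings in cystine for glutathione synthesis in exchange for glutamate. E1 had 14.5 ppm and E2 42.8 ppm, the M libraries 8.56 and 8.47 ppm and the RE libraries 5.13 and 5.66 ppm. The states did not overlap, but the E libraries were 2.95-fold apart. The fall from E to RE was called (log2 fold change -2.19 ± 0.43, limma adjusted p = 0.00913) and that from E to M missed the limit (-1.54 ± 0.43, limma adjusted p = 0.0243). The first call was lost without M1 (adjusted p = 0.0312), M2 (0.031), RE1 (0.0839) or RE2 (0.0543), and with median-of-ratios factors (0.0109). Without E1 the log2 fold change of E vs. M was -2.31, in a fit that leaves out the spread between the E libraries. *Slc7a7*, the y+LAT1 chain, lay between 9.59 and 14.2 ppm in all libraries and was not called.

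The cationic carriers, which bring in arginine and lysine without a heavy chain, included opposite changes. *Slc7a2* (CAT-2) was at 12.7 and 22.8 ppm in E, 57.6 and 68.5 ppm in M and 134 and 124 ppm in RE. Each state stood clear of the one before. It rose in M (log2 fold change 1.87 ± 0.26, limma adjusted p = 0.00121) and was higher in RE than in E (2.91 ± 0.26, limma adjusted p = 0.000531). The M call was lost without M1 (adjusted p = 0.0143) or M2 (0.0212) and the RE call without RE1 (0.015) or RE2 (adjusted p = 0.01, just at the limit). M vs. RE had a log2 fold change of 1.04 with adjusted p = 0.0197, and passed without E1 (adjusted p = 1.07e-06) or E2 (8.86e-07). In the newer annotation 473 bases of an exon of the antisense gene *Gm26584* overlap *Slc7a2*, and reads of the pair cannot be told apart without strand.

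*Slc7a3* (CAT-3) ran the other way at a low level, with 2.80 and 3.62 ppm in E, 0.899 and 0.982 ppm in M and 0.397 and 0.349 ppm in RE. Again the states did not overlap. It fell in M (log2 fold change -1.66 ± 0.26, limma adjusted p = 0.00226) and in RE against E (-2.80 ± 0.26, limma adjusted p = 0.000645). Without M1 or M2 the adjusted p of E vs. M was 0.0282 and 0.0227, and without RE1 or RE2 that of E vs. RE was 0.0145 and 0.0118. M vs. RE (-1.14, adjusted p = 0.0147) passed without E1 (adjusted p = 0.00292) or E2 (0.00312). *Slc7a1* (CAT-1) was not called, with E1 at 84.5 ppm, E2 at 315 ppm and M and RE between 148 and 198 ppm, and *Slc7a4*, a relative with no established cargo, lay between 0.935 and 2.47 ppm, lowest in M.

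Of the 5 tested amino acid carriers of *Slc6*, 4 were called in E vs. M (80%, against 17% of all genes). In M, 1 was higher and 3 were lower, against 8.58% and 8.39% of all genes. *Slc6a14* encodes ATB0,+, a sodium- and chloride-driven carrier of neutral and cationic amino acids found in epithelia. It was at 9.91 and 9.40 ppm in E, 0.0714 and 0.121 ppm in M and 10.6 and 7.66 ppm in RE. In M1 and M2 this was 149 and 250 bases, about 3 and 5 reads' worth, so the M level is close to the limit of detection and the size of the fold depends on the pseudocount. The E and RE libraries overlapped and both stood far above M. The log2 fold change was -5.65 ± 0.25 in E vs. M (limma adjusted p = 1.19e-05) and 5.55 ± 0.25 in M vs. RE (limma adjusted p = 1.27e-05), or -3.28 and 3.19 with a pseudocount of 1 ppm in place of 0.1 ppm. E vs. RE gave -0.10 ± 0.25 (limma adjusted p = 0.793), which turned to 0.13 without RE2. Its promoter window, printed above, holds the AP-1 match.

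*Slc6a9*, the glycine carrier GlyT1, was at 136 and 287 ppm in E, 36 and 35.7 ppm in M and 105 and 103 ppm in RE. M stood below all other libraries, and RE between M and E. It fell in M (log2 fold change -2.46 ± 0.30, limma adjusted p = 0.000716) and was higher in RE than in M (1.54 ± 0.30, limma adjusted p = 0.00751). The M call was lost without M1 (adjusted p = 0.0132) or M2 (0.013), and the M vs. RE call without M1 (0.0657), M2 (0.0626), RE1 (0.0642) or RE2 (0.0519). The M vs. RE call held without E1 or without E2, and its log2 fold change was 1.52 to 1.55 with any library left out. E vs. RE had a log2 fold change of -0.92 (limma adjusted p = 0.0532). Without E1 it was -1.46, in a fit that leaves out the spread between E1 and E2. Up to 1258 bases of exon of the antisense gene *Ccdc24* overlap *Slc6a9* in the newer annotation.

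*Slc6a15*, a sodium-driven carrier of branched-chain amino acids and proline known from neurons, was at 4.11 and 5.53 ppm in E, 1.32 and 1.69 ppm in M and 0.991 and 1.42 ppm in RE. E stood above the other libraries, and M and RE overlapped. It fell in M (log2 fold change -1.61 ± 0.28, limma adjusted p = 0.00345) and in RE against E (-1.92 ± 0.28, limma adjusted p = 0.00307). Without M1 or M2 the adjusted p was 0.0418 and 0.023 in E vs. M, and 0.013 and 0.013 in E vs. RE. Without RE1 or RE2 it was 0.0441 and 0.0193 in E vs. RE.

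*Slc6a7*, the brain proline carrier PROT, was the 1 member of this group to rise, from 4.09 and 4.42 ppm in E to 13.0 and 13.0 ppm in M and 11 and 11.4 ppm in RE. Its replicates nearly coincided and E lay below the rest. The log2 fold change was 1.59 ± 0.16 in E vs. M (limma adjusted p = 0.000297) and 1.38 ± 0.16 in E vs. RE (limma adjusted p = 0.00132). The second call was lost without M1 (adjusted p = 0.0102), M2 (0.0101), RE1 (0.0276) or RE2 (0.0235). *Slc6a19*, the neutral amino acid carrier of kidney and gut, did not exceed 0.331 ppm and was not called.

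The carriers of taurine and creatine, osmolyte and energy-buffer molecules, were both higher in M. *Slc6a6*, the taurine carrier, was at 136 and 294 ppm in E, 647 and 675 ppm in M and 603 and 515 ppm in RE. Both E libraries lay below the others. It rose in M (log2 fold change 1.72 ± 0.32, limma adjusted p = 0.00444), and E vs. RE missed the limit (1.48 ± 0.32, limma adjusted p = 0.0128). Without E2 the log2 fold change of E vs. RE was 2.03, in a fit that leaves out the spread between E1 and E2. The M call was lost without M1 (adjusted p = 0.0409), M2 (0.0442), RE1 (0.0136) or RE2 (0.0136).

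*Slc6a8*, the creatine carrier, was at 39.8 and 48.7 ppm in E, 95.5 and 101 ppm in M and 56.7 and 46.9 ppm in RE. M was highest, and E and RE overlapped. It rose in M (log2 fold change 1.16 ± 0.16, limma adjusted p = 0.00123). The call was lost without M1 or M2, at log2 fold changes of 1.2 and 1.12. With library totals only, the log2 fold change of 0.86 was under the fold limit. M vs. RE was just short of that limit (-0.93 ± 0.16, limma adjusted p = 0.00419). *Slc6a12*, the betaine carrier, had 1.06 ppm in E1 but 0.104 ppm in E2, 3.22 and 3.12 ppm in M and 1.63 and 0.81 ppm in RE, and was not called (log2 fold change 2.75 ± 0.73 in E vs. M, limma adjusted p = 0.0199).

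*Slc6a2*, which clears noradrenaline at nerve endings and carries no amino acid, changed most of all 33 members in M vs. RE. It was at 9.38 and 8.32 ppm in E, 0.259 and 0.147 ppm in M and 36.9 and 23.3 ppm in RE. M was nearly at the limit of detection and RE above E, with no overlap. The log2 fold change was -4.91 ± 0.29 in E vs. M (limma adjusted p = 2.81e-05), 6.63 ± 0.29 in M vs. RE (limma adjusted p = 1.17e-05) and 1.72 ± 0.29 in E vs. RE (limma adjusted p = 0.00521). With a pseudocount of 1 ppm the first and second of these were -3.03 and 4.66. The E vs. RE call was lost without M1 (adjusted p = 0.0145), M2 (0.014), RE1 (0.0699) or RE2 (0.0206), and without a filter on low values (0.012). *Slc6a4*, the serotonin carrier, did not exceed 0.828 ppm and was not called.

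Of the proton-coupled family, *Slc36a4*, a carrier of proline and tryptophan, was called and *Slc36a1*, which exports amino acids from the lysosome, was not. *Slc36a4* was at 7.58 and 10 ppm in E, 20.9 and 22.1 ppm in M and 28.9 and 27.5 ppm in RE. The 3 states stood apart in the order E, M, RE. It rose in M (log2 fold change 1.29 ± 0.18, limma adjusted p = 0.00117) and was higher in RE than in E (1.68 ± 0.18, limma adjusted p = 0.000918). These calls were lost without M1 (adjusted p = 0.0185) or M2 (0.0221) and without RE1 (0.0233) or RE2 (0.0156), respectively. The first also fell under the fold limit with library totals only (0.99) or with the trend on GC content and length removed (0.86). *Slc36a1* ran from 6.69 ppm in E1 to 15.0 ppm in RE1, with E2 at 12.7 ppm inside the range of the RE libraries.

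*Slc38a2*, the system A carrier SNAT2, which loads cells with glutamine and alanine against a gradient, was at 198 and 282 ppm in E, 620 and 557 ppm in M and 600 and 534 ppm in RE. Both E libraries were below the rest, and M and RE overlapped. It rose in M (log2 fold change 1.31 ± 0.19, limma adjusted p = 0.00154) and was higher in RE than in E (1.26 ± 0.19, limma adjusted p = 0.00347). The calls were lost without M1 (adjusted p = 0.0267 in E vs. M and 0.0165 in E vs. RE) or M2 (0.0185 and 0.0164), and the second also without RE1 (0.0571) or RE2 (0.0313) or with the trend on GC content and length removed (log2 fold change 0.94). M vs. RE (-0.05) had no fixed sign, at 0.02 without M1 and 0.03 without RE2. *Slc38a1*, the other system A carrier tested, was listed between 0.236 and 0.647 ppm and was not called.

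The remaining *Slc38* members tested were not called. *Slc38a10* was at 185 and 183 ppm in E, 334 and 358 ppm in M and 200 and 202 ppm in RE, with M clear of the other states. Its log2 fold change of 0.91 ± 0.12 in E vs. M and -0.78 ± 0.12 in M vs. RE had small adjusted p (0.00109 and 0.00269, limma) but was under the fold limit. *Slc38a9*, the lysosomal arginine sensor of mTORC1, lay between 15.4 and 18.3 ppm in all 6 libraries. *Slc38a6* was at 15.0 to 16.2 ppm in E and M and at 23.5 and 23.4 ppm in RE, and *Slc38a7* at 18.1 to 31.8 ppm with its extremes in E1 and E2. Antisense genes also overlap exons of *Slc38a10* (*Gm11769*, 367 bases), *Slc6a6* (*Gm44981*, 117 bases) and *Slc3a1* (*Prepl*, 601 bases).

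*Slc43a2* encodes LAT4, a facilitator that lets branched-chain amino acids, phenylalanine and methionine leave the cell. It was at 18.4 and 18.3 ppm in E, 7.55 and 8.70 ppm in M and 36.7 and 33.5 ppm in RE. Replicates were close and the 3 states did not overlap. It fell in M (log2 fold change -1.17 ± 0.15, limma adjusted p = 0.000948) and was higher in RE than in M (2.10 ± 0.15, limma adjusted p = 7.26e-05), while E vs. RE was short of the fold limit (0.93 ± 0.15, limma adjusted p = 0.00467). The M call was lost without M1 (adjusted p = 0.0197) or M2 (0.0118). Here the overlapping antisense gene was *Gm45606*, with 672 bases. *Slc43a1* (LAT3) did not exceed 0.312 ppm and was not called.

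On the log2(ppm + 0.1) scale, the E libraries were more than 2-fold apart for 7 of the 33 tested members, and the M and RE libraries for 0. *Slc1a4*, *Slc38a1*, *Slc6a6*, *Slc6a9*, *Slc7a1* and *Slc7a11* were higher in E2, and *Slc6a12* was higher in E1. Over all genes tested, 7.55% differed by that much between the E libraries. The 9 members listed as ATF4 targets (*Slc1a4*, *Slc1a5*, *Slc3a2*, *Slc6a9*, *Slc7a1*, *Slc7a3*, *Slc7a5*, *Slc7a11* and *Slc38a2*) were all higher in E2, with a median E2 to E1 ratio of 1.95, while 48.3% of all genes were higher in E2 (median ratio 0.986). Of these 9, 3 were called in E vs. M (33.3%, against 17% of all genes), 1 higher (*Slc38a2*) and 2 lower (*Slc6a9* and *Slc7a3*), and 4 in E vs. RE (44.4%, against 9.37%), again *Slc38a2* higher and *Slc1a5*, *Slc7a3* and *Slc7a11* lower, and 1 in M vs. RE (*Slc6a9*, higher, 11.1%, against 12.9%). Without M1 or M2, 0 of the 9 were called in E vs. M and 1 in E vs. RE, and without RE1 or RE2, 0 in E vs. RE and 0 in M vs. RE. Without E1, 7 were called in E vs. RE, and without E2, 5 in E vs. M. Neither the source of the difference between E1 and E2 nor its part in these results was tested.

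**Figure D4:**
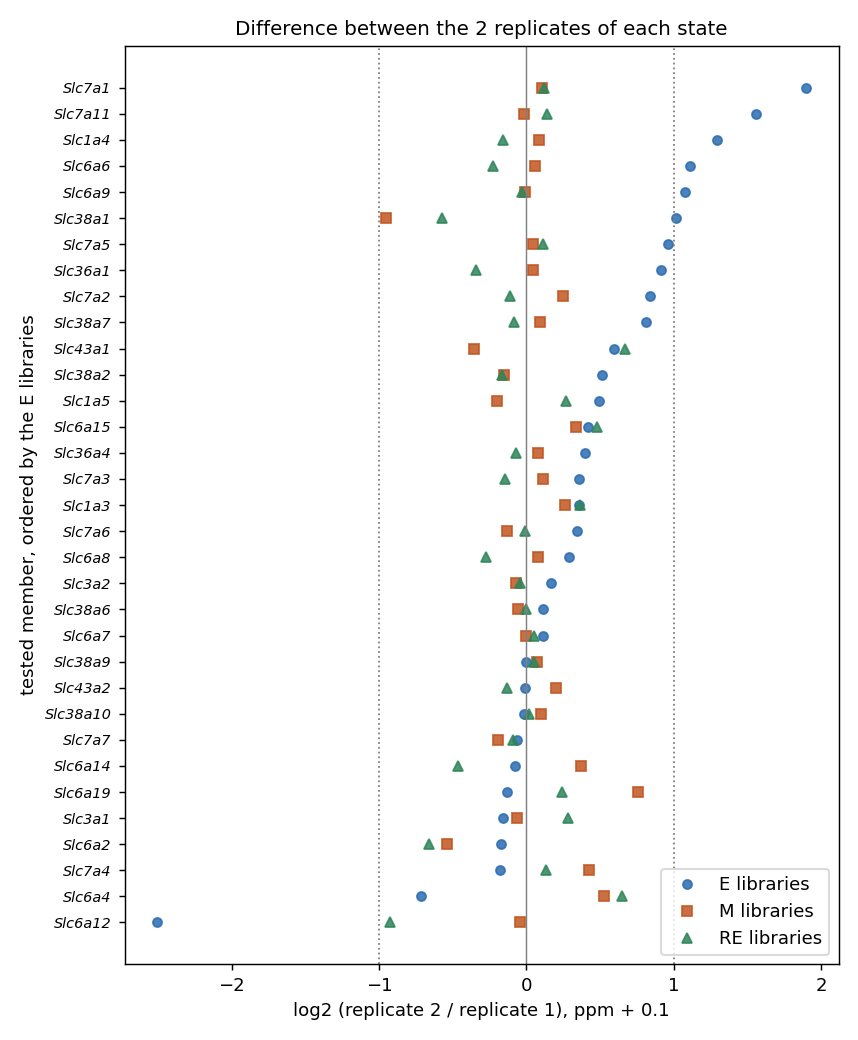
Log2 ratio of the second to the first library of E, M and RE cells for the 33 tested members, a point for each member. The points of E spread widest, with 7 beyond 1 in either direction, and no point of M or RE lies beyond 1.

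Of the 10 members in the table that were listed for uptake by the lactating gland, 8 were tested, of which 3 were called in E vs. M (37.5%, against 17% of all genes, *Slc38a2* and *Slc6a6* higher, *Slc6a14* lower), 1 in M vs. RE (12.5%, against 12.9%, *Slc6a14*, higher) and 2 in E vs. RE (25%, against 9.37%, *Slc38a2* higher, *Slc1a5* lower). Without M1 or M2 these were 1 in E vs. M and 0 in E vs. RE, and without RE1 or RE2, 0 in E vs. RE. Without E2, 5 were called in E vs. M, and without E1 or E2, 4 in E vs. RE.

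In a list of 27 genes that synthesize amino acids or respond to their lack, 12 were called in E vs. M, 11 lower and 1 higher (*Eif2ak3*), and 12 in E vs. RE, all lower, against 8.39% and 3.17% of all genes called lower. The median log2 fold change was -0.73 and -0.81, and those of all genes 0.00 and 0.01. The hormone gene *Fgf21* had log2 fold changes of -2.59 in M and -3.46 in RE against E, the pseudokinase gene *Trib3* -2.05 and -2.49, the proline synthesis gene *Pycr1* -1.78 and -2.48, and the cystathionine lyase gene *Cth* -2.29 and -2.37. *Atf4* itself was not called, with 646 to 793 ppm in all libraries. In M vs. RE, 2 of the 27 rose (7.41%, against 12.9% of all genes called), the transcription factor genes *Ddit3* (1.53) and *Cebpb* (1.49). Both were among those called lower in M than in E (-1.28 and -1.58), and neither was called in E vs. RE (0.26 and -0.09). Without M1 and without M2, 3 and 1 of the 27 were called in E vs. M and 7 and 7 in E vs. RE. Without RE1 and RE2, 0 and 4 were called in E vs. RE, and without any 1 of the M or RE libraries 0 in M vs. RE. Of the 27, 21 were higher in E2 than in E1.

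Of the 20 cytosolic tRNA synthetases, which load amino acids onto tRNA, none was called by limma in E vs. M or M vs. RE (9 and 12 were lower at an unadjusted p under 0.05, and 2 and 0 higher), and 4 fell in RE against E, *Cars* (-1.44), *Vars* (-1.16), *Sars* (-1.10) and *Gars* (-1.07), with a median of -0.71 over the list. These are shares of 0%, 0% and 20%, against 17%, 12.9% and 9.37% of all genes called, and 3.17% called lower in E vs. RE. Without RE1 or RE2 0 were called in E vs. RE, and without M1 or M2, 2. Without E1, 1 was called in E vs. M. Of 13 enzymes of glutamine, glutamate and glutathione, 1 rose in M against E (*Ggt5*, which cleaves extracellular glutathione, 3.02), 1 rose in RE against M (*Glul*, the glutamine synthetase, 1.65) and 5 were called in E vs. RE. *Ggt5* (2.36), *Glul* (1.40) and *Gclc* (1.05), which starts glutathione synthesis, were higher in RE, and *Gls2* (-1.48) and *Ggct* (-1.16) lower. The share called was 7.69% between E and M (17% of all genes), 7.69% between M and RE (12.9%) and 38.5% between E and RE (9.37%). Without RE1 or RE2, 0 of the 13 were called in E vs. RE, and without M1 or M2, 3. In M vs. RE, 0 were called without M1 or RE2, and 2 without E1 or E2.

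Of 32 listed genes of amino acid sensing by mTORC1, 18 were found by symbol and 17 were tested. *Mtor*, *Rptor* and the *Lamtor* genes were among those not analysed here, so the shares do not describe the whole pathway. Of the 17, 2 were called between E and M (11.8%, against 17% of all genes), 3 between M and RE (17.6%, against 12.9%) and 3 between E and RE (17.6%, against 9.37%). The leucine sensor relatives *Sesn1* and *Sesn3* were both called. *Sesn1* was higher in RE than in M (log2 fold change 2.19) and than in E (2.21), whereas *Sesn3* was higher in M than in E (1.26) as well as in RE (1.73). The GTPase gene *Rragb* fell in M (-2.47) and was higher in RE than in M (2.14). *Flcn* (1.0 in M vs. RE) and its partner *Fnip1* (1.42 in E vs. RE) were the other calls. Without M1 or M2, 1 was called in E vs. M, and without RE1, 0 in E vs. RE. Without M1, RE1 or RE2, 1 was called in M vs. RE, and without E2, 5 in E vs. RE.

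Among 15 tested amino acid and peptide carriers of other families, 2 were called in each comparison (13.3%, against 17%, 12.9% and 9.37% of all genes in E vs. M, M vs. RE and E vs. RE). They were the lysosomal cystine exporter *Ctns* (log2 fold change -2.91 in E vs. M and 1.97 in M vs. RE), *Slc25a18* (1.84 in E vs. M and 1.44 in E vs. RE), a mitochondrial glutamate carrier, *Slc15a3* (-1.95 in M vs. RE) and *Slc16a10* (-1.51 in E vs. RE), an aromatic amino acid carrier. Without M1 or M2, 1 was called in E vs. M and 0 in E vs. RE and M vs. RE, without RE1, 0 in both comparisons with RE, and without RE2, 0 in E vs. RE and 1 in M vs. RE.

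**Figure D5:**
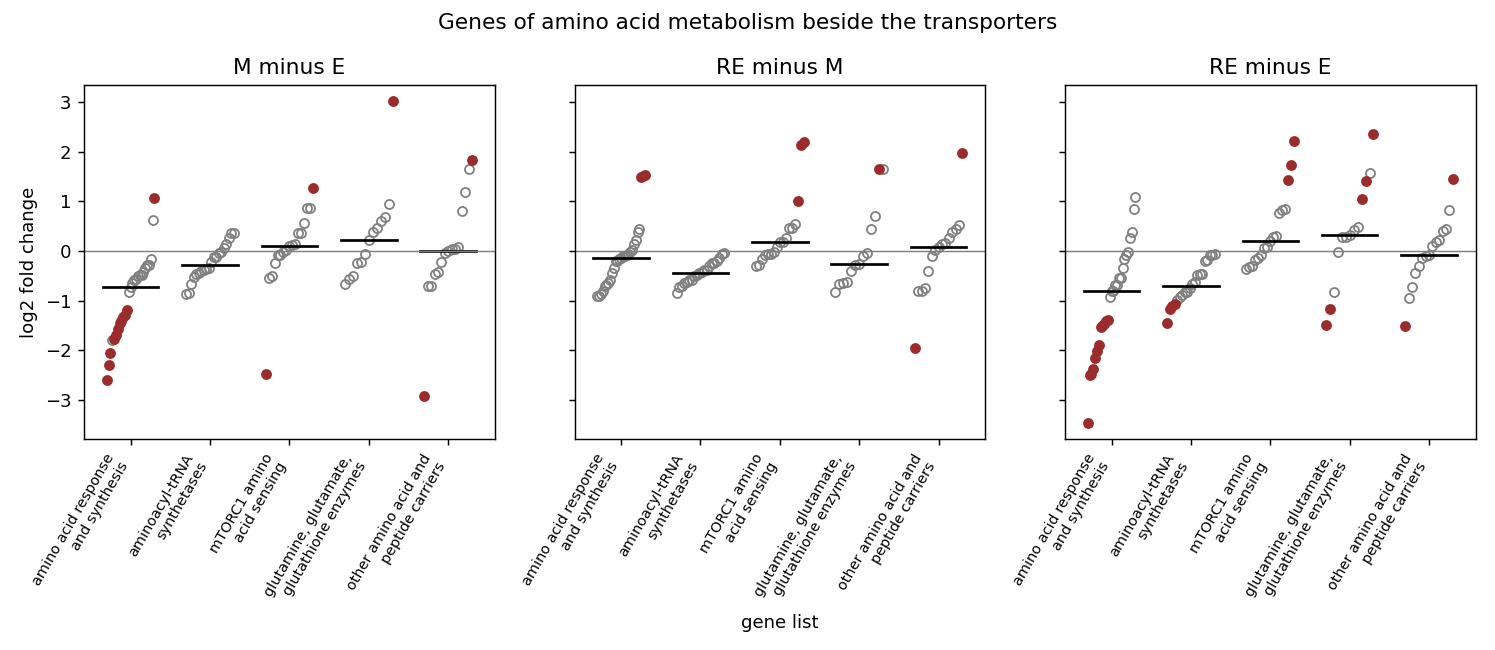
Log2 fold change of the genes of the 5 lists of other genes in E vs. M, M vs. RE and E vs. RE, a point for each gene, filled where called, with a line at the list's median. The median of the amino acid response genes lies below 0 in E vs. M and E vs. RE (-0.73 and -0.81), with some genes above 0, and that of the tRNA synthetases in E vs. RE is -0.71.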

How the data were processed

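RNA of 2 biological replicates each of E, M and RE cells was sequenced. The authors mapped unique reads to NCBI-m37 with Bowtie and TopHat2 and deposited 1 table of whole numbers per gene and library, without normalization. The deposited values behave as coverage (signal), as sequenced bases that the authors summed per gene, since 44.8% to 48.4% of small values per library are multiples of 50. The step that summed them per gene, its annotation and its use of strand are not given in the sources used here. Each column was assigned to a library by its name.

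Coverage was scaled by TMM without weights (trimming 30% of the log ratios and 5% of the mean levels, factors 0.871 to 1.12) and expressed in ppm. The filter required 500 bases in 2 or more libraries. In R 4.3.3, limma 3.58.1 was fitted to log2(ppm + 0.1) with all 6 libraries, group only, and a trend on mean expression. edgeR, the test the authors used, was not run, because it needs read counts. The pseudocount shrinks the fold of low genes. A library's floor (3 reads' worth) was 0.0635 to 0.0781 ppm. Such floors reflect counting error alone.

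Members and lists were chosen with earlier results of these data known. Named members were those called at least once, *Slc3a2*, *Slc7a5*, *Slc7a11*, *Slc1a5* and *Slc38a2*, and the 5 with the highest level per length, and of each list of other genes up to 4 called genes with the largest change. Other members and *Atf4* were named after their values were seen. Transcript lengths, GC content and exon overlaps came from GENCODE vM21 (GRCm38), newer than the authors' build, by symbol (93.2% of genes tested). Promoters came from RefSeq, and the transcribed part of 32 of 50 member windows was found in a transcript of the gene.

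The fit was tested on simulated data for E vs. M with a log2 change of 2 given to 200 genes. Of the 198 among the 13826 genes run, 165 (83.3%) were called in the right direction, and 5 unchanged genes were called. The simulation gave each gene the same spread in all libraries. The real E libraries varied more than those of M (SD of the log2 difference 0.558 against 0.318), so these rates need not hold for the data. The alternatives were median-of-ratios factors, library totals, other filters, pseudocounts and thresholds, a fit of only 2 groups, array weights, a replicate block, removal of a trend on GC content and length fitted per library, and leaving out each library.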

Additional observations from a re-analysis of the deposited data

How the results depend on the processing

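Of 29 calls, 9 held under every alternative that tested them and 20 were lost under at least 1, each of them by leaving out a library, which leaves a lone library assumed to vary like the others. No call changed sign. The number of members called with a library left out ran from 4 to 16 for E vs. M, from 1 to 14 for E vs. RE and from 4 to 9 for M vs. RE. A fit of only the 2 groups gave 4 in E vs. RE and 9 in M vs. RE, and in M vs. RE array weights gave 9, a limit of 0.05 on the adjusted p gave 8 and the filter in every library gave 3, since *Slc6a14* and *Slc6a2* are then not tested. All other counts of members were within 1.5 times the values reported.

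Signs turned only where no call was made. For *Slc38a2* in M vs. RE the log2 fold change was 0.15 with library totals and -0.14 to 0.03 without a library. With the trend on GC content and length removed, with or without the block, it was -0.06 for *Slc38a10* in E vs. RE and -0.01 for *Slc3a2* in M vs. RE. Without a library it was -0.33 to 0.13 for *Slc6a14* in E vs. RE and -0.80 to 0.16 for *Slc7a5* in E vs. M. Library totals moved the median of all genes to -0.29 in E vs. M and 0.18 in M vs. RE, and the share of called genes that were higher from 50.6% to 30.5% and from 62.8% to 73.8%. For the members it gave 5 higher and 7 lower in E vs. M, with *Slc36a4* (0.99) and *Slc6a8* (0.86) under the fold limit. The cause of these changes was not tested.

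The shared replicate numbers are all that was given on a pairing of the libraries. Correlations of the replicates' deviations were 0.27 for E and M, 0.12 for M and RE and 0.058 for E and RE. Whether the libraries are paired was not tested. With the replicate block, 14 members were called between E and M, 5 between M and RE and 11 between E and RE.

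Changes under 2-fold are excluded by the fold limit, whatever their adjusted p. Below 3 reads' worth (150 bases) in a library, expression was not detectable at this depth.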
